A study of Caenorhabditis elegans with 4 samples.

Results

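The genes that attach ubiquitin to proteins, build cullin-based ligases and take ubiquitin off again were followed in whole Caenorhabditis elegans larvae of 2 genotypes. They were chosen by gene symbol (uba, ubc, uev, ubq, usp, cul, skr and rbx families, protein-coding only), with no measured value used. The choice gave 57 genes with a value out of 17958 protein-coding genes: 2 ubiquitin genes, 2 E1 genes, 20 E2 and E2-variant genes, 8 cullin and RING-partner genes, 17 SKP1-related adaptor genes and 8 deubiquitinase genes. The annotation names 66 such genes, and uba-5, ubc-1, ubc-14, ubc-26, uev-3, skr-12, skr-17, skr-21 and usp-48 were not analysed here because none of their current RefSeq transcripts matched a row.

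Wild type animals were compared with animals carrying the dve-1 allele uf171, each as 2 RNA-seq libraries, 4 in all. Per the labels both genotypes were grown at 25 °C on E. coli OP50, and each library pooled the total RNA of about 1200 synchronized whole animals. The labels give the stage as L4, the last larval stage, while the protocol text speaks of L1 larvae, so the stage is given as labelled. Levels are FPKM, which divide fragments by the length of the transcript and the depth of the library. Wild type replicate 1 held an estimated 37300000 fragments and replicate 2 held 38500000, and the mutant replicates 36100000 and 35400000. dve-1 itself read 14.2 and 13.9 FPKM (wild type) against 22.98 and 21.1 FPKM (mutant) (limma adjusted p = 0.874), a level that does not check the genotype labels, since they do not say what uf171 changes. Nothing says that the libraries came from separate cultures, so each p-value speaks only of the spread among these 4 libraries, and that spread may be technical.

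Ubiquitin is a small protein that marks other proteins for the proteasome or changes their location or activity. An E1 enzyme activates it, an E2 enzyme carries it, and an E3 ligase places it on a target, while deubiquitinases remove it. Cullin-RING ligases are a large family of E3 ligases: a cullin scaffold binds a RING protein (RBX), which recruits the E2, and an adaptor, such as SKP1 for CUL-1, that holds the substrate receptor. DVE-1, the mutated protein, is a homeodomain factor known from the mitochondrial stress response, where it acts with the ubiquitin-like protein UBL-5.

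No member passed the test between the genotypes. Of the 57 genes, 48 reached at least 1 FPKM in at least 2 libraries and were tested with limma on log2(FPKM + 1) together with all other genes. Of these 48, 0 passed an adjusted p of 0.05, where 0.13% of the 14652 genes tested did, and 0 had an unadjusted p under 0.05, where 4.6% of all genes did. The members are all protein-coding. In the same limma fit, of 13467 protein-coding genes 1 passed the adjusted threshold and 467 had an unadjusted p under 0.05. The adjusted p was 0.9996 for each member, and the 95% interval of the difference included 0 for all 48. Those intervals lay within a 2-fold change of FPKM + 1 in either direction for 41 members and within a 1.5-fold change for 19. For those members a change of FPKM + 1 beyond that bound lay outside the interval, while smaller differences remained possible. In members of low level the same bound allows a larger fold change of FPKM itself. The width of the interval differed from gene to gene.

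By sign, 22 members were higher and 26 lower in the mutant. Their median log2 fold change was -0.03, beside -0.02 over all genes tested. The 2 libraries of each genotype did not overlap for 5 members that read higher in the mutant and for 7 that read lower, or 10.4% and 14.6% of those tested. Over all genes tested these shares were 11.9% and 16.2%, close to those of the members. For 39 of the 48 (81.2%) the larger gap between replicates exceeded the difference between genotypes, beside 81.6% of all genes. An exact permutation test of 2 against 2 libraries cannot give a two-sided p below 0.333 for any single gene. Whole animals were measured, so fewer cells of a type and less RNA per cell cannot be told apart.

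**Figure D1:**
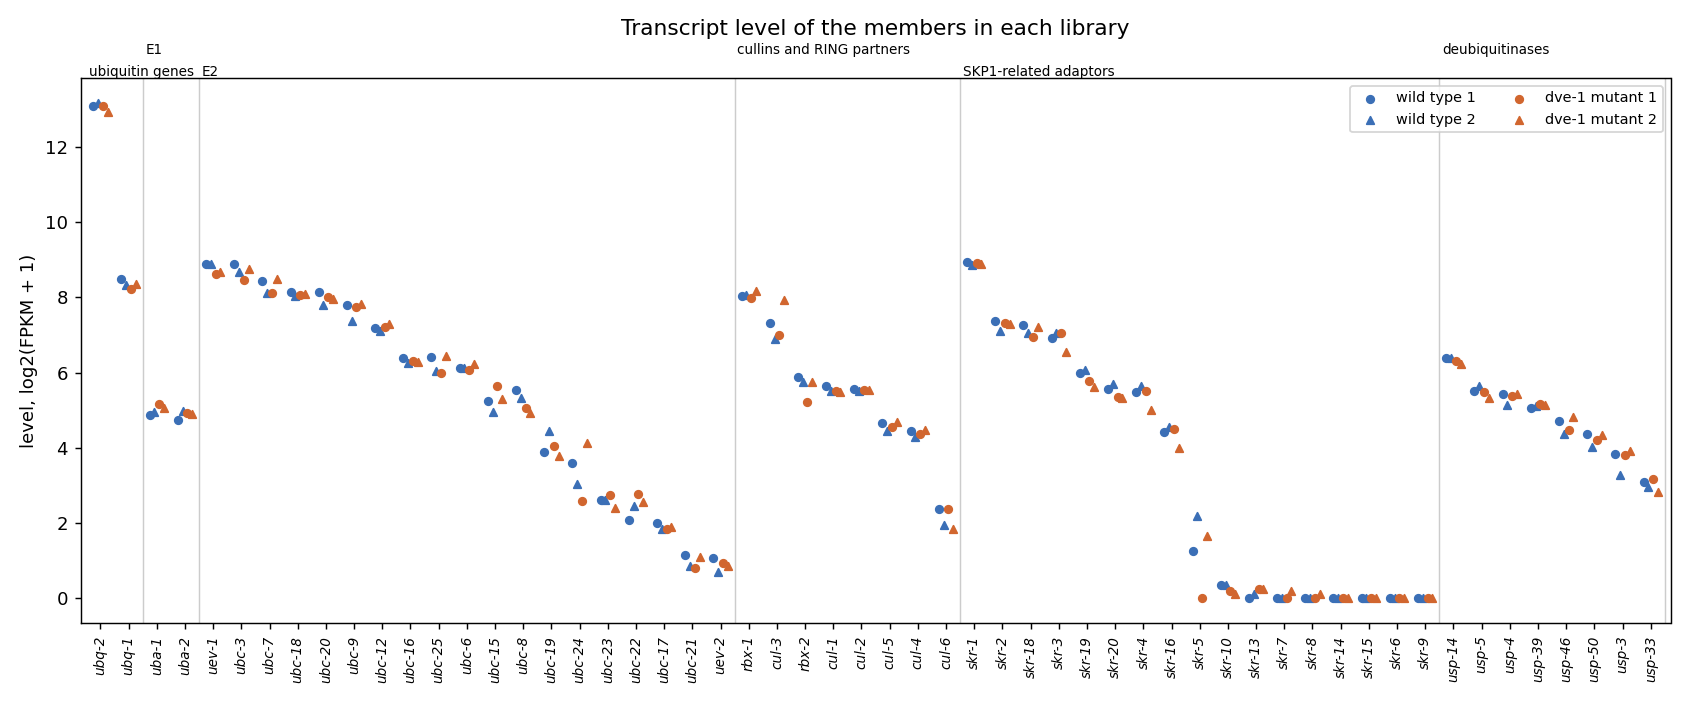
Level of 56 of the 57 members in each library, as log2(FPKM + 1) on the vertical axis, grouped by role and ordered by mean level; blue marks wild type, orange dve-1 mutant, circles replicate 1 and triangles replicate 2. Levels span the range from ubq-2, with a mean of 8616 FPKM, to adaptor genes listed at 0, and the 4 libraries of most genes lie close together.

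The ubiquitin genes came first in level. ubq-2, which encodes ubiquitin fused to ribosomal protein L40, read 8741 and 9162 FPKM in libraries of the wild type and 8712 and 7851 FPKM in those of the mutant. Both mutant libraries lay below both wild type libraries, the nearest pair by 8741 against 8712 FPKM, and the log2 fold change was -0.11 (SE 0.13). ubq-1, which encodes polyubiquitin, read 360 and 322 FPKM (wild type) against 297 and 325 FPKM (mutant). Its genotypes overlapped, and the log2 fold change was -0.13 (SE 0.14). ubq-2 alone made up most of the summed FPKM of the 57 genes, and the ubiquitin genes together held 65.2% and 68.5% of it in wild type and 67.4% and 63.6% in the mutant. ubq-1 carries repeats of the ubiquitin sequence, so the division of fragments between repeats and between ubq-1 and ubq-2 is uncertain.

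The 2 E1 genes lay close to each other in level. uba-1 encodes the activating enzyme for ubiquitin. It read 28.4 and 29.7 FPKM in libraries of the wild type and 34.9 and 32.6 FPKM in those of the mutant. Means were 29.1 ± 0.930 and 33.7 ± 1.64 FPKM (SD, n = 2). Both mutant libraries lay above both wild type libraries, by a log2 fold change of 0.21 (SE 0.16, 95% interval -0.25 to 0.66). uba-2, a subunit of the activating enzyme for SUMO, read 25.6 and 30.7 FPKM (wild type) against 29.6 and 28.8 FPKM (mutant). Here the mutant libraries lay between those of wild type. Together the 2 E1 genes held 54.0 to 64.6 FPKM per library.

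Among the E2 genes the mean level ran from 0.863 FPKM for uev-2 to 435 FPKM for uev-1, and the 3 highest were uev-1, ubc-3 and ubc-7. uev-1 encodes an E2 variant that lacks the catalytic cysteine. Its level was 470.3 and 469 FPKM in libraries of the wild type and 396 and 405 FPKM in those of the mutant. Means were 470 ± 0.759 and 400 ± 6.92 FPKM (SD, n = 2). The wild type libraries nearly coincided and both mutant libraries lay lower, by a log2 fold change of -0.23 (SE 0.12, 95% interval -0.56 to 0.10). ubc-3, the homologue of yeast CDC34 that serves SCF ligases, read 470 and 405 FPKM in libraries of the wild type and 348 and 434 FPKM in those of the mutant, and ubc-7 read 348 and 277.1 against 277.6 and 355 FPKM. In both the genotypes overlapped. ubc-3 could not be separated from uev-1 beyond the spread of their libraries, while ubc-7 lay below uev-1 in every library.

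The largest difference among members with a mean of at least 5 FPKM belonged to ubc-8. This E2 gene (Y94H6A.6; chromosome IV, 2704741 to 2707238 on the minus strand, WBcel235) read 45.7 and 39.2 FPKM (wild type) against 32.3 and 29.2 FPKM (mutant). Means were 42.4 ± 4.60 and 30.8 ± 2.18 FPKM (SD, n = 2), a ratio of 0.725, and the genotypes did not overlap. Its log2 fold change of -0.45 had an SE of 0.18 and a 95% interval of -0.95 to 0.05. In the other direction, ubc-15 read 36.8 and 30.02 FPKM in libraries of the wild type and 48.6 and 38.4 FPKM in those of the mutant, with a log2 fold change of 0.37 (SE 0.22). ubc-22 lay higher as well, at 3.26 and 4.52 against 5.80 and 4.92 FPKM, where the values rest on an estimated 72.0 to 124 fragments. Its neighbour ubc-21, which lies 462 bases further along chromosome X on the other strand, read 1.22 and 0.825 FPKM (wild type) against 0.756 and 1.15 FPKM (mutant).

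Several E2 genes serve ubiquitin-like proteins or are known for one ligase. ubc-12, the E2 for NEDD8, which activates cullins, read 146 and 137 FPKM in libraries of the wild type and 147 and 155 FPKM in those of the mutant. No library of the mutant fell below one of wild type, but the nearest pair was 145.9 and 146.5 FPKM and the log2 fold change 0.09 (SE 0.13). ubc-9, the E2 for SUMO, read 222 and 165 against 214 and 225 FPKM, and wild type replicate 2 stood below the other 3 libraries. ubc-18, which acts in pharynx development with the ligase ARI-1, was among the steadiest members, at 281 and 260.2 FPKM (wild type) against 265 and 269 FPKM (mutant).

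ubc-24 varied most among the E2 genes. It read 11.1 and 7.26 FPKM in libraries of the wild type and 4.98 and 16.4 FPKM in those of the mutant, so the highest and the lowest library were both mutant and the ratio between them was 3.30. The log2 fold change was 0.03 (SE 0.62), 0.80 without mutant replicate 1 and -0.74 without mutant replicate 2. Sperm marker genes, 35 of a list of 41 with a value and none of them listed at 0 throughout, ordered the libraries in the same way: they summed to 17287 and 11790.5 FPKM (wild type) against 6973 and 19422 FPKM (mutant). Oocyte markers (20 of 23 with a value) also had their lowest and highest sums in these mutant libraries, at 778 and 2200 FPKM, with 1202.5 and 893 FPKM in wild type. The part of either tissue in the level of ubc-24 was not tested. ubc-24 was singled out after its values were seen. The E2 genes not described here (ubc-6, ubc-16, ubc-17, ubc-19, ubc-20, ubc-23 and ubc-25) all overlapped between genotypes.

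**Figure D2:**
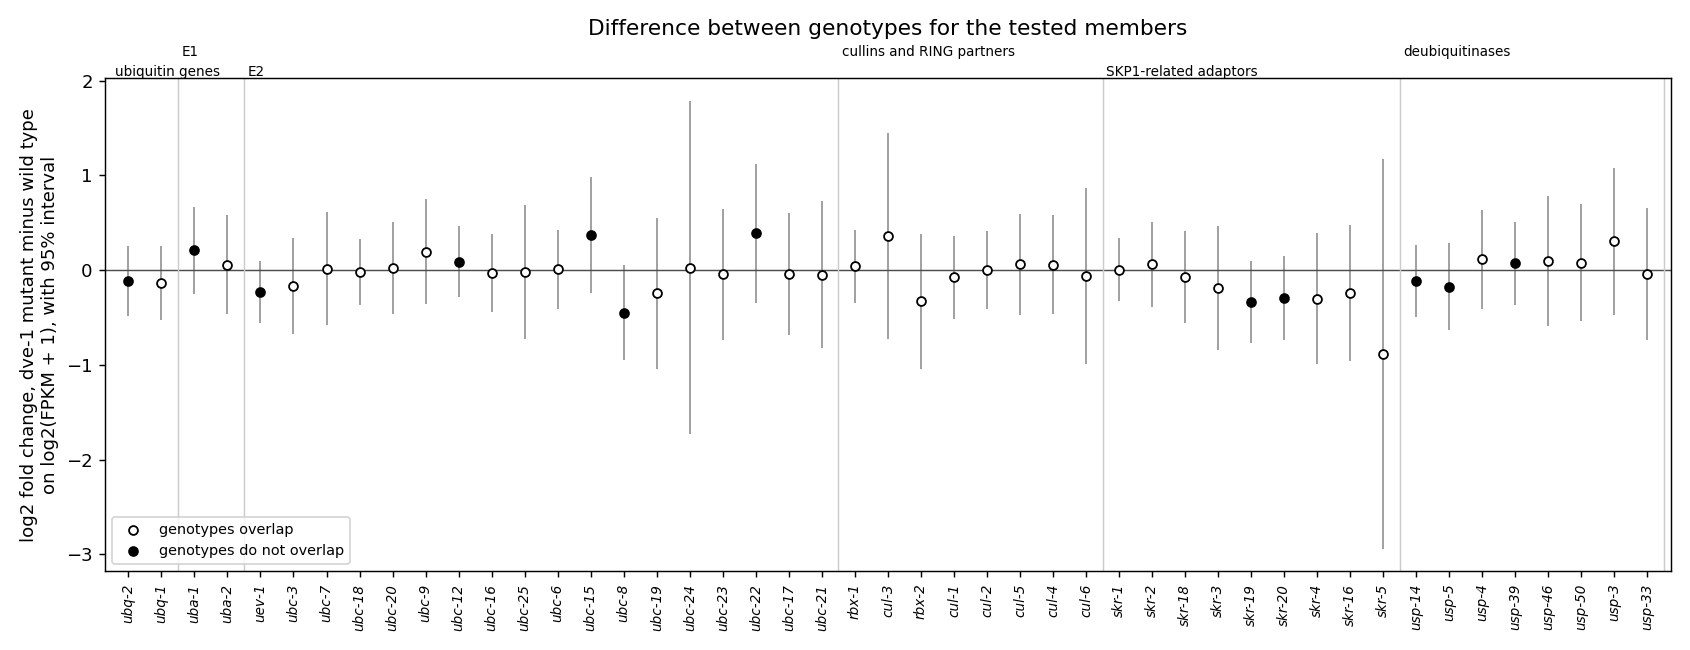
Difference between dve-1 mutant and wild type for 47 of the 48 tested members on the log2(FPKM + 1) scale, positive where the mutant was higher; bars are 95% limma intervals, and filled points are members whose 2 genotypes did not overlap. Every interval crosses 0, and the widest belong to skr-5 and ubc-24.

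No cullin gene or RING partner separated the genotypes. By sign 5 of the 8 were higher and 3 lower, the median log2 fold change was 0.02, and none had genotypes that did not overlap. cul-1, the scaffold of SCF ligases, read 49.2 and 44.4 FPKM in libraries of the wild type and 44.6 and 44.0 FPKM in those of the mutant. cul-2, which works with elongins, was the steadiest of the 48 tested members, at 46.2 and 44.7 FPKM (wild type) against 45.3 and 45.7 FPKM (mutant), a ratio of 1.03 between its highest and lowest library. cul-4, needed for control of DNA replication licensing, read 20.7 and 18.4 against 19.6 and 21.1 FPKM. cul-5 read 24.3 and 20.9 against 22.4 and 24.8 FPKM. In mean level cul-1 and cul-2 could not be separated beyond the spread of their libraries, and cul-4 and cul-5 lay below them in every library. Within each library cul-5 lay above cul-4, though their ranges over the libraries overlapped.

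cul-3, the scaffold that binds BTB-domain receptors such as MEL-26, read 158 and 118 FPKM in libraries of the wild type and 128 and 242 FPKM in those of the mutant. The excess in mutant replicate 2 sat on the transcript NM_001313287, which was listed at 0 in the other 3 libraries and read 127 FPKM there. Without that transcript, a choice made after the values were seen, cul-3 read 114.7 FPKM in mutant replicate 2 and the log2 fold change went from 0.36 (SE 0.38) to -0.18. The RING genes differed from each other more than between genotypes. rbx-1 read 260.5 and 265 FPKM (wild type) against 254 and 287 FPKM (mutant), whereas rbx-2 read 57.8 and 52.7 against 35.9 and 53.2 FPKM, with mutant replicate 1 alone low.

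cul-6 is known in C. elegans for its role, with skr-3, skr-4 and skr-5, in the response to intracellular pathogens. It was the lowest cullin gene, at 4.17 and 2.86 FPKM in libraries of the wild type and 4.15 and 2.55 FPKM in those of the mutant. These levels include NR_131627, whose accession prefix marks a non-coding transcript. That transcript read 0.936 and 1.57 FPKM (wild type) against 0.8003 and 1.85 FPKM (mutant). The coding transcript NM_070011 read 3.23 and 1.29 against 3.34 and 0.704 FPKM. The adaptors of the CUL-6 ligase ranged widely: skr-3 read 120.8 and 131 FPKM (wild type) against 132 and 92.2 FPKM (mutant). skr-4 read 43.8 and 49.1 against 44.99 and 31.1 FPKM. In both, mutant replicate 2 was the lowest library and mutant replicate 1 lay at or just above the wild type range in skr-3 and within it in skr-4. skr-16, another adaptor gene, ordered the libraries as skr-4 did, at 20.5 and 22.6 against 21.8 and 15.05 FPKM. skr-5 read 1.37 and 3.55 FPKM in wild type, was listed at 0 in mutant replicate 1 and read 2.18 FPKM in mutant replicate 2. An exact 0 can be a failed estimate in this table, so no fold is given for skr-5 and its plotted interval rests on that 0.

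Beside those low values, mutant replicate 2 also stood apart in cuticle collagen genes, whose 109 tested members summed to 66896 FPKM there and to 41295 and 39698 FPKM in libraries of the wild type and 47253 FPKM in mutant replicate 1. In molting genes (26 of 27 with a value, none listed at 0 throughout) that library did not stand apart. They summed to 8395 and 7024 FPKM (wild type) against 5801 and 5505 FPKM (mutant), so both mutant libraries lay lower. Intestine markers (23 of 24 with a value, cpr-6 listed at 0 in every library) summed to 7583 and 8865 FPKM in libraries of the wild type and 10180 and 9437 FPKM in those of the mutant. The part of these tissues in the levels of skr-3, skr-4 and skr-16 was not tested.

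SKP1-related adaptors fell into 9 tested genes and 8 at or near 0. skr-1 and skr-2, neighbours on chromosome I and the homologues of SKP1 that bind CUL-1, led with skr-18. skr-1 read 487 and 460 FPKM (wild type) against 480.4 and 470 FPKM (mutant), and skr-2 read 165 and 136 against 158 and 155 FPKM. skr-18 read 151.5 and 132 FPKM in libraries of the wild type and 123 and 146 FPKM in those of the mutant. It lay below skr-2 within each library, though their ranges over the libraries overlapped. skr-18 and skr-3 could not be separated beyond the spread of their libraries. In all 3 of the leading genes the genotypes overlapped.

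Of the 9 tested adaptors, 7 (77.8%) had a negative log2 fold change, beside 53.8% of all genes tested. The 7 include skr-5, whose fold change rests in part on a listed 0. The median of the 9 was -0.24, which was -0.04 without mutant replicate 2. With 9 genes, too few to set against the shares over all genes, only skr-19 and skr-20 (22.2%) had genotypes that did not overlap. Over all genes tested 16.2% lay lower without overlap. They lie side by side on the minus strand of chromosome X with 703 bases and no other protein-coding gene between them (13224241 to 13224708 and 13223016 to 13223537, WBcel235). skr-19 read 62.7 and 65.7 FPKM (wild type) against 53.7 and 47.8 FPKM (mutant). Means were 64.2 ± 2.13 and 50.7 ± 4.16 FPKM (SD, n = 2), and the log2 fold change was -0.34 (SE 0.15, 95% interval -0.77 to 0.10). skr-20 read 46.2 and 51.1 against 40.005 and 38.95 FPKM, with means of 48.7 ± 3.51 and 39.5 ± 0.745 FPKM (SD, n = 2) and a log2 fold change of -0.29 (SE 0.16, 95% interval -0.73 to 0.15). The next gene after skr-19, 1425 bases away, is skr-21, which had no matched transcript and so no level here. The skr genes are related in sequence, so the division of fragments among these neighbours is uncertain.

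The other 8 adaptor genes were at or near 0 and were not tested. skr-6, skr-9, skr-14 and skr-15 were listed at 0 in every library. skr-10 rested on an estimated 4 and 4 fragments in wild type and 2 and 1 in the mutant, skr-13 on 0, 1, 2 and 2 fragments in the same order of libraries, and skr-7 and skr-8 on 2 and 1 fragments in mutant replicate 2 alone. At this depth no difference between genotypes was detectable for them. Some of them lie side by side. On chromosome IV skr-13, skr-9 and skr-8 follow each other with no other protein-coding gene between them, and skr-14 and skr-7 do so on chromosome V. The next gene after skr-8 is skr-12, which had no matched transcript and so no level here. skr-6, skr-10 and skr-15 have no such neighbour.

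**Figure D3:**
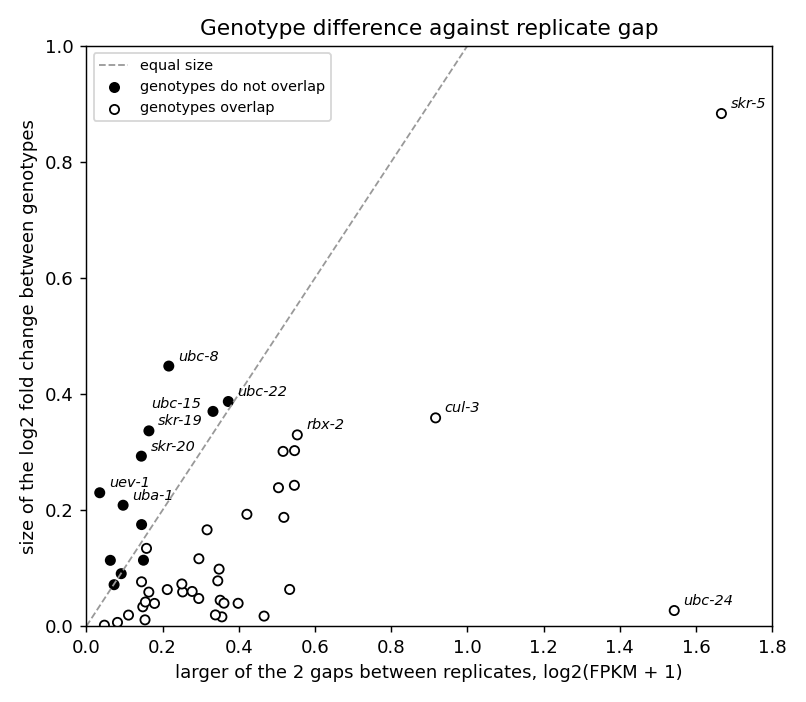
Size of the log2 fold change between genotypes (vertical) against the larger of the gaps between replicates (horizontal) for the 48 tested members, both on the log2(FPKM + 1) scale; filled points are members whose genotypes did not overlap and the dashed line marks equal size. Points under the line, 39 of 48, differed more between replicates than between genotypes; uba-1, uev-1, ubc-8, ubc-15, ubc-22, skr-19, skr-20, usp-5 and usp-14 lie above it.

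Deubiquitinase genes ranged from 7.13 FPKM for usp-33 to 79.3 FPKM for usp-14 in mean level. usp-14, which encodes a deubiquitinase that binds the proteasome, read 82.8 and 82.0 FPKM in libraries of the wild type and 77.8 and 74.4 FPKM in those of the mutant. Its means were 82.4 ± 0.532 and 76.1 ± 2.38 FPKM (SD, n = 2), and the genotypes did not overlap, with a log2 fold change of -0.11 (SE 0.14). usp-5, whose human homologue takes apart free ubiquitin chains, read 44.7 and 48.8 against 43.4 and 39.2 FPKM, again without overlap and with a log2 fold change of -0.18 (SE 0.16). usp-39, whose human homologue belongs to the spliceosome, lay higher in the mutant at 32.1 and 33.8 against 35.1 and 34.2 FPKM, by a log2 fold change of 0.07 (SE 0.16). usp-4 read 42.2 and 34.2 against 40.4 and 42.2 FPKM and overlapped. usp-3, usp-33 and usp-50 overlapped as well; usp-3 read 13.2 and 8.75 against 12.9 and 14.2 FPKM, with wild type replicate 2 alone low.

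usp-46, singled out after its values were seen, overlapped between genotypes in its level while its 2 transcripts did not. USP-46 is the deubiquitinase known in C. elegans for removing ubiquitin from the glutamate receptor GLR-1. The gene (R10E11.3; chromosome III, 9776623 to 9778850 on the plus strand, WBcel235) read 25.2 and 19.6 FPKM (wild type) against 21.04 and 27.1 FPKM (mutant), which overlapped (log2 fold change 0.10, SE 0.24). Its transcript NM_066761 read 6.47 and 4.83 FPKM in libraries of the wild type and 16.5 and 18.7 FPKM in those of the mutant. The other transcript, NM_066762, read 18.7 and 14.8 FPKM (wild type) against 4.52 and 8.40 FPKM (mutant). The first thus held 25.7% and 24.6% of the gene in libraries of the wild type and 78.5% and 69.0% in the mutant libraries, with means of 25.2% ± 0.751 and 73.7% ± 6.74 (SD, n = 2).

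A limma fit over 17095 single transcripts, added after these values were seen, gave NM_066761 a log2 fold change of 1.49 (SE 0.25, 95% interval 0.76 to 2.22, adjusted p = 0.357) and NM_066762 one of -1.29 (SE 0.37, 95% interval -2.35 to -0.23, adjusted p = 0.782), so neither passed. They were the 2 of 55 tested member transcripts with an unadjusted p under 0.05, beside 5.07% of all transcripts. Over the alternative settings the limma adjusted p ran from 0.262 to 0.9999 for the first and from 0.65 to 0.9999 for the second. The fold change of NM_066761 was 1.31 to 1.67 when each library was left out, and that of NM_066762 was -1.68 to -0.91. The annotation holds 2 models of usp-46, each of 6 exons, of 1530 and 1245 nucleotides. They share 3 whole exons and differ in the ends of the others: the second exon starts at 9776779 in the longer model and at 9776815 in the shorter one, and the last exon ends at 9778850 and 9778616. Which accession stands for which model is not given in the sources used here, and fragments from shared exons were divided by an estimate.

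cul-2 showed a smaller difference of the same kind. NM_001027836 read 34.1 and 36.7 FPKM in libraries of the wild type and 29.4 and 29.9 FPKM in those of the mutant, and NM_001027837 read 12.1 and 7.999 against 15.9 and 15.8 FPKM. The second held 22.04% ± 5.87 of the gene in wild type and 34.8% ± 0.297 in the mutant (SD, n = 2), and neither passed the fit over transcripts (adjusted p = 0.9997 for both). Members with at least 2 tested transcripts numbered 6, and in usp-46 and cul-2 the genotypes separated in opposite directions. Over all 1983 genes with at least 2 tested transcripts this was so for 10.9%, and 2 of 6 members is too few to set against that share.

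**Figure D4:**
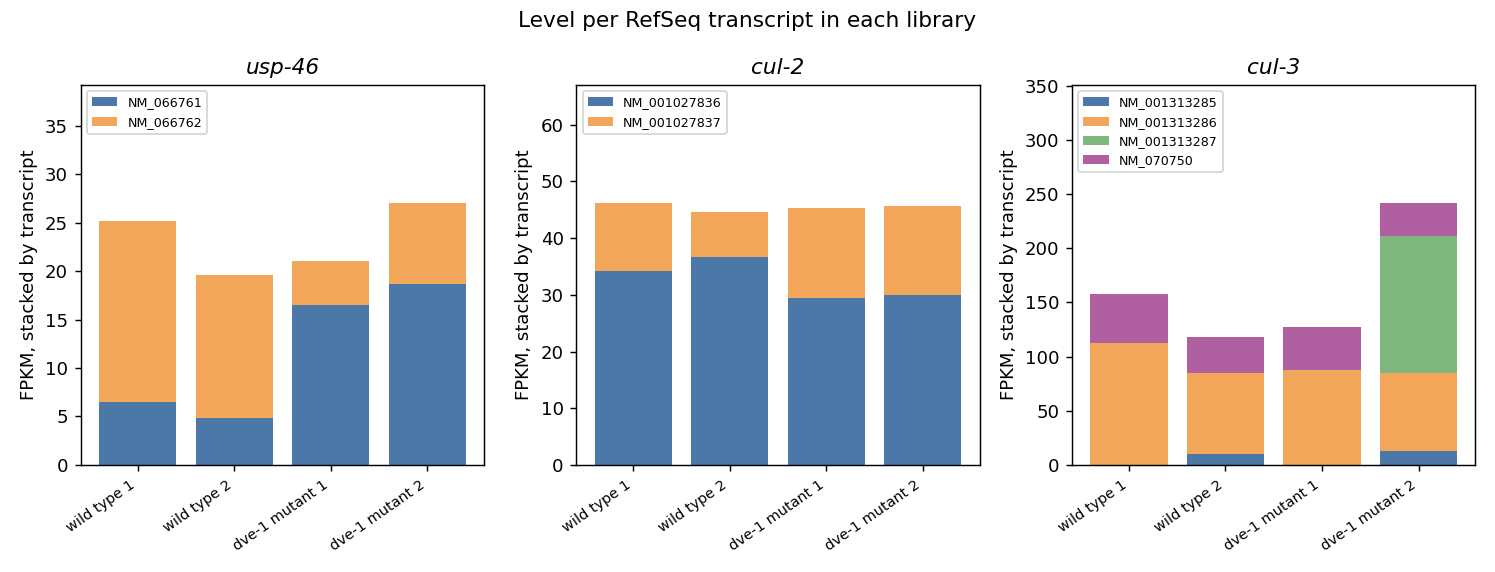
FPKM of each RefSeq transcript, stacked, in the 4 libraries for usp-46, cul-2 and cul-3. The usp-46 transcript NM_066761 (blue) holds 25.7% and 24.6% of the bar in wild type and 78.5% and 69.0% in the mutant; in cul-3 the transcript NM_001313287 (green) appears in mutant replicate 2 alone.

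Other genes of the pathway, outside the symbol rule, were read from lists chosen by role. Members that those lists also hold (ubc-12, ubc-9 and uba-2) are left out of the counts. Over all genes tested 46.2% were higher and 53.8% lower by sign. Genotypes did not overlap for 11.9% of all genes on the higher side and 16.2% on the lower side. Of 10 tested genes of the NEDD8 pathway and the COP9 signalosome, which switch cullins on and off, 8 were higher by sign, 0 passed, and the median log2 fold change was 0.05. In 4 of the 10 (csn-2, csn-5, csn-6 and rfl-1) both mutant libraries lay above both wild type libraries, beside 11.9% of all genes, and in 0 they lay below. Each of these separations was small: csn-5, the catalytic subunit of the signalosome, read 39.3 and 40.5 against 41.2 and 42.1 FPKM (log2 fold change 0.06, SE 0.15). rfl-1, a subunit of the NEDD8 E1, read 29.2 and 29.7 FPKM (wild type) against 30.2 and 32.5 FPKM (mutant), a separation smaller than its SE. The 20 tested substrate receptors and adaptors of cullins had 14 higher and 6 lower by sign and 0 passed, with no overlap in 2 that read higher and 2 that read lower. That list also holds fbl-1, which encodes fibulin, and him-17, neither known as a receptor. The 2 that read higher without overlap were fbl-1 and kel-8. vhl-1, the receptor for the hypoxia factor HIF-1, was in this list the one with the smallest unadjusted p and read 21.7 and 22.5 against 17.3 and 16.6 FPKM (log2 fold change -0.37, SE 0.17).

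Ligases outside the cullin family likewise had none past the adjusted threshold. Of 11 tested HECT and RBR ligases, 6 were higher and 5 lower by sign, 1 of the lower ones without overlap. hecd-1, a HECT ligase, was the one gene in all 10 pathway lists with an unadjusted p under 0.05. It read 48.4 and 34.6 FPKM in libraries of the wild type and 22.95 and 24.4 FPKM in those of the mutant, with a log2 fold change of -0.77 (SE 0.23, limma adjusted p = 0.924). Among 26 genes listed as RING and U-box ligases 16 were higher and 10 lower, with no overlap in 1 and 2 of them, and the Cbl homologue sli-1 read 35.6 and 25.4 against 23.4 and 21.6 FPKM. The anaphase-promoting complex, the ligase of mitotic exit, had 6 higher and 5 lower of 11, with no gene whose genotypes did not overlap. Beside these counts, genotypes did not overlap for 11.9% of all genes on the higher side and 16.2% on the lower side.

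let-70, an abundant E2 whose symbol falls outside the rule, read 663 and 681 FPKM (wild type) against 690.3 and 609.7 FPKM (mutant), above every ubc and uev gene. SUMO pathway genes were higher by sign in 5 of 7 (median log2 fold change 0.09), without overlap in 1, ulp-4. The 5 tested UFM1 genes had 1 higher and 4 lower, 2 of the lower ones without overlap, ufm-1 itself reading 828 and 620 against 554 and 621 FPKM. Genes listed as other deubiquitinases had 6 higher and 8 lower of 14, without overlap in 1 and 3. The 1 that read higher without overlap was csn-5, the signalosome subunit counted above with the NEDD8 pathway, not a ubiquitin-specific enzyme. In the same list ubh-2 read 35.7 and 35.9 against 31.2 and 30.4 FPKM. Ubiquitin receptors and CDC-48 cofactors had 4 higher and 9 lower of 13, 2 of the lower ones without overlap, and the autophagy receptor gene sqst-1 read 59.9 and 54.95 against 50.02 and 46.5 FPKM. For comparison, over all genes tested 46.2% were higher and 53.8% lower by sign. The shares without overlap were 11.9% higher and 16.2% lower. In none of these lists did a gene pass the limma threshold.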

How the data were processed

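The authors deposited a table of 52491 RefSeq transcripts with a value for each library, read here as FPKM because they are not whole and their sums, 2841244 to 3080293 per library, exceed those of TPM. Per the submitters' processing notes, TopHat2, Cufflinks and ce11 were used, and their versions, settings, the kit and the use of strand are not given in these sources. Accessions were matched to WBcel235 RefSeq genes ignoring versions (47633, 90.7%) and FPKM were summed per gene over 41602 genes, so a gene with an unmatched isoform is understated. Exact 0 values occurred in 46 genes with a median above 50 FPKM, so a 0 can be a failed estimate.

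Depth was estimated from 1228 genes with a single transcript. Low values times length fell within 0.1 of whole fragments for 97.5% to 98.9% once 204 nucleotides were taken off each length, as an effective length does, against 69.2% to 74.2% with the plain length. Lengths came from Ensembl release 115.

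limma 3.58.1 (R 4.3.3) with a mean-variance trend was fitted to log2(FPKM + 1) of the 14652 genes that reached 1 FPKM in 2 or more libraries, two-sided, with Benjamini-Hochberg adjustment at 0.05 over all of them. Fold changes are mutant minus wild type on that scale, where changes of low genes appear too small. The fit had 3.84 degrees of freedom. It was also run on values simulated independently with the fitted spread. Such values meet its assumptions, so that run does not test them for these libraries. Tables were made with Python 3.11.15 and pandas 2.3.3. The genes named with every value were all uba, ubq, cul and rbx members, the 3 highest of the other families, up to 8 of each with at least 5 FPKM whose genotypes did not overlap, members at 0 in a library though their mean reached 1 FPKM, and up to 3 per pathway list by p; others named were chosen after their values were seen. 1 E2 gene enters the counts but is not reported here by name or plotted with a label. The members, lists and tests were chosen with earlier results of these data known.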

Additional observations from a re-analysis of the deposited data

How the results depend on the processing

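Over all genes tested 19 were called; 86 were called without the mean-variance trend, 3 with no filter on low values, 10 with at least 5 FPKM, 10 with a pseudocount of 0.1, and 0 with protein-coding genes alone or without any 1 library (0 to 0). With a replicate block 0 were called. Same-numbered libraries did not deviate together over all genes tested (correlation -0.194). With 2 libraries a genotype, this correlation cannot show whether the libraries were prepared in pairs. The crossed replicate block, added after seeing the data, also called 0. No member was called under any setting. Quantile normalization gave 9 members without overlap above wild type in place of 5, a median for the ubiquitin genes of -0.0282 in place of -0.12, and a log2 fold change of 0.0493 for ubc-18. With the highest accession per gene the cullin and RING median was -0.14, cul-2 -0.25, cul-3 -0.21 and otub-3 -0.0447. Without its 1-library accession cul-3 was -0.18. The causes were not tested.

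Of the 48 tested members 29 changed sign under some setting, 25 of them only without a library. Without each library in turn, the adaptor median ran from -0.31 to -0.0431 and the deubiquitinase median from -0.0848 to 0.14. Single genes ran as follows on the log2 scale: apc-11 -0.12 to 0.32, apc-2 -0.32 to 0.0515, ari-1.2 -0.25 to 0.0013, cand-1 -0.0085 to 0.19, cul-2 -0.022 to 0.0255, cul-3 -0.0993 to 0.82, cul-4 -0.0232 to 0.14, cul-5 -0.043 to 0.17, cul-6 -0.33 to 0.20, let-70 -0.14 to 0.0395, rbx-1 -0.0502 to 0.13, skr-1 -0.0343 to 0.0475, skr-16 -0.49 to 0.0134, skr-18 -0.20 to 0.0525, skr-2 -0.0789 to 0.20, skr-3 -0.45 to 0.0716, uba-2 -0.0673 to 0.19, ubc-16 -0.11 to 0.0406, ubc-17 -0.12 to 0.0358, ubc-18 -0.0746 to 0.0361, ubc-19 -0.52 to 0.0302, ubc-20 -0.15 to 0.19, ubc-21 -0.20 to 0.0997, ubc-23 -0.22 to 0.13, ubc-24 -0.74 to 0.80, ubc-25 -0.25 to 0.22, ubc-6 -0.066 to 0.088, ubc-7 -0.16 to 0.19, ubc-9 -0.0178 to 0.40, usp-33 -0.22 to 0.14, usp-4 -0.0314 to 0.26, usp-46 -0.0759 to 0.27, usp-50 -0.0943 to 0.25. Counts of genotypes without overlap were not recomputed without a library.

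With 2 libraries a genotype, log2 differences as large as -0.45 in ubc-8 (SE 0.18) and -0.77 in hecd-1 (SE 0.23) were not called. FPKM carry no spread of their own, isoform values are estimates, and summed tissue markers moved between libraries.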
